A study of Mus musculus with 8 samples.

Results

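Transcripts of the colony-stimulating factors and their receptors were counted cell type by cell type in GL261 gliomas and in naïve mouse brain, to set the cells that carried the ligands beside the cells that carried the receptors. The 6 genes were taken by name and not by their values: the ligand genes Csf1 and Il34, and the receptor genes Csf1r, Csf2ra, Csf2rb and Csf3r. All 6 were among the 18471 genes found in at least 30 cells, out of 32502 genes listed in any of the 8 count tables. GL261 is a mouse glioma line that grows in immunocompetent mice of the C57BL/6 strain, to which all 8 libraries belong by the labels (the study's methods give C57BL/6N), and 500 cells were implanted per brain (the labels name the right striatum, the study's methods the frontal cortex). Brains of wild-type mice (WT, Irg1/Acod1 +/+) and of mice lacking aconitate decarboxylase 1 (KO, Irg1/Acod1 -/-) were taken without implantation (naïve) or at tumour volumes of 5 to 10 mm3 (early), 20 to 25 mm3 (intermediate) and 30 to 35 mm3 (late), with 1 Drop-seq library for each genotype and stage. Drop-seq captures the 3′ ends of the messenger RNA of single cells on barcoded beads, and each molecule is counted by a unique molecular identifier (UMI).

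The naïve labels name 2 mice each, and the other libraries came from 1 mouse each, from the dissected tumour core. The early KO, intermediate WT and both late mice were male and the early WT and intermediate KO mice female, so genotype and sex cannot be told apart at the early and intermediate stages. The ages of the mice were not given in the sources used here. Myelin was removed with beads before loading, which bears on the number of oligodendrocytes. The targeted allele carries an inserted cassette, and littermates served as controls.

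CSF1 and IL-34 are cytokines that bind the same receptor, the tyrosine kinase CSF1R, on which microglia depend for their survival and through which macrophages are kept alive and drawn into tissue. The receptor of GM-CSF consists of an alpha chain encoded by Csf2ra and a shared beta chain encoded by Csf2rb, which signals through JAK2 and STAT5. The receptor of G-CSF is encoded by Csf3r and is best known from neutrophils. In the healthy brain, IL-34 is known as a product of neurons and CSF1 as a product of glia.

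The 8 libraries held between 2885345 (KO naïve) and 9950713 (WT intermediate) UMIs. Of the 1000 largest barcodes of each library, those with at least 1000 genes were kept as cells, 5698 in all, 454 in each naïve library and 712 to 1000 in each library of tumour-bearing mice, with a median of 2597.5 to 5637.5 UMIs per cell. Only 2 barcode sequences occurred in more than 1 library. Clusters were formed without the 6 genes and without the other pathway genes, and were named from lists of known marker genes. They gave 3394 tumour cells, 174 microglia-like cells (called TAM I, where TAM stands for tumour-associated microglia or macrophages) and 448 macrophage-like cells (TAM II) in tumour-bearing mice, and 201 microglia-like cells in naïve mice. All 10 microglia markers were detected in the microglia-like cells and all 11 macrophage markers, led by Lyz2, in the macrophage-like cells. The remaining cells included 367 oligodendrocytes, 293 astrocytes, 270 endothelial cells, 188 lymphocytes, 56 mural or fibroblast-like cells, 38 neurons and 26 dendritic cell-like cells. Of 8 neutrophil markers, 2 were among the genes kept, and no cluster was named for neutrophils.

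Acod1, the targeted gene, was summed over TAM I and TAM II. The WT libraries held 140 UMIs (early), 5 (intermediate) and 4 (late), and the libraries labelled KO held 27, 6 and 33, while both naïve libraries were at 0. Acod1 transcripts were therefore present in libraries of both genotypes. A 3′ tag may lie outside the altered stretch of the gene and then does not check the genotype, which is used below as the labels give it. By the study's methods, mice were genotyped by PCR, and the study could not detect Acod1 by qPCR in cultured bone marrow macrophages of KO mice.

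In the gene annotation (GENCODE M21, mouse build GRCm38, the build that the labels name), Csf1 lies on chromosome 3 (chr3:107741048-107760469, minus strand), Il34 on chromosome 8 (chr8:110741829-110805924, minus strand), Csf2ra on chromosome 19 (chr19:61223957-61228429, minus strand), Csf2rb on chromosome 15 (chr15:78325752-78353847, plus strand) and Csf3r on chromosome 4 (chr4:126024550-126044440, plus strand). Il34 overlaps the antisense genes Gm15894 and Gm15895. The use of strand in the counting was not given in the sources used here. Csf2rb has a close neighbour, Csf2rb2 (chr15:78282507-78305721), that encodes a beta chain for IL-3. Of the 50-base words of the Csf2rb transcript, 18.4% occurred in Csf2rb2 as well, but none of those in its last 500 bases, where Drop-seq reads fall.

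The sequences just before the start are shown for the ligand gene and the receptor gene that differed between microglia-like and macrophage-like cells in opposite directions. They are the 250 bases before the RefSeq start (GRCm38.p6), written 5′ to 3′ along the gene's strand. Capitals mark matches, on either strand, to GGGANTTTC (part of the NF-kB site, for Csf1) or GAGGAA (the core bound by the myeloid factor PU.1, for Csf2ra), motifs picked with the sequences in view. The PU.1 letters also stood before Csf3r, which is lower in macrophage-like cells (86 bases before the start):
Csf1, chr3:107760470-107760719, minus strand: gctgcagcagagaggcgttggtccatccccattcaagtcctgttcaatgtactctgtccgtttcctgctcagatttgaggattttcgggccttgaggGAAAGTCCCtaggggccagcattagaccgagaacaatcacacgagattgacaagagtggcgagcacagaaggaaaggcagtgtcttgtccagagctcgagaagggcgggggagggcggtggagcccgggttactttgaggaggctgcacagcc
Csf2ra, chr19:61228419-61228668, minus strand: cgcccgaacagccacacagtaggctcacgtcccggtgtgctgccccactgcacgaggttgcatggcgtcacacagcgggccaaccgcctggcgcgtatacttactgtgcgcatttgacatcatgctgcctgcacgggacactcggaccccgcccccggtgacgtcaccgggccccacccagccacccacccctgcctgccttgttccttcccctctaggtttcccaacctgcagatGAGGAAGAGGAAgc
The NF-kB letters in Csf1 lie on the opposite strand, 153 bases before the start, and 0.941% of the 32851 windows of this length in the table held them. The matches in Csf2ra begin 14 and 8 bases before the start and share no base, and 23.3% of windows held at least 1. The RefSeq starts of Csf2ra and Csf3r lie inside the genes as annotated above. The nearer Csf2ra match and the Csf3r match therefore fall within the annotated genes. A match is a description of these letters only.

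Csf1 was highest in TAM I. Levels are given as UMIs per 1000000 UMIs of the class in that library (CPM), with sums over fewer than 5 cells left out, and are compared between cells and not between genes. In TAM I, Csf1 stood at 332 CPM in the WT early library (93 UMIs), 462 in WT intermediate (8 UMIs in 5 cells), 338 in WT late, 234 in KO early, 310 in KO intermediate and 126 in KO late (7 UMIs). The mean was 300.4 ± 113 CPM (SD, n = 6 libraries), against 29.6 ± 7.24 in naïve microglia-like cells (n = 2, 7 UMIs in each library). A Csf1 UMI was found in 38.5% of TAM I cells (exact binomial 95% interval 31.2% to 46.2%) and in 5.97% of naïve microglia-like cells (3.12% to 10.2%). At 1000 UMIs per cell, to which the shares were thinned because depth differs between classes, the shares were 20.8% and 2.64%. The UMIs were spread over 67 TAM I cells, of which 15 held 5 or more and none more than 10.

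Oligodendrocytes followed. Their Csf1 level was 136 ± 46.4 CPM in tumour-bearing mice (n = 6) and 122 ± 43.6 in naïve mice (n = 2). Astrocytes reached 113 ± 63.6 (n = 5), mural and fibroblast-like cells 75.6 ± 39.2 (n = 4) and endothelial cells 52.3 ± 21.0 (n = 5) in tumour-bearing mice. The ranges of TAM I and oligodendrocytes overlapped, with TAM I higher in 5 of the 6 libraries, the exception being KO late, and no neighbours in this order were separated. In naïve brain, Csf1 was led by mural and fibroblast-like cells (159 ± 123 CPM, n = 2) and oligodendrocytes, with microglia-like cells ranked 7 of 9 classes.

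TAM II carried less Csf1. The level was 6.78, 149 and 89.6 CPM in the WT early, intermediate and late libraries and 19.5, 10.5 and 20.6 in the KO libraries, from 4 to 13 UMIs per library. It was below that of TAM I in each of the 6 libraries. The 2 highest TAM II values came from the WT intermediate and WT late libraries, which held only 17 and 26 of these cells.

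Tumour cells contributed most Csf1 UMIs by their number and not by their level. They held 773 of the 1218 Csf1 UMIs of tumour-bearing mice (63.5%, from 44.8% in WT early to 78.5% in KO late), and they were 70.9% of the cells. TAM I held 16.7% of the UMIs with 3.63% of the cells, oligodendrocytes 7.80% with 4.66% of the cells, and TAM II 4.02%. The level in tumour cells was 46.4, 15.9 and 15.6 CPM in WT early, intermediate and late and 28, 33.1 and 39.5 in KO (mean 29.8 ± 12.5, n = 6). Of the 530 tumour cells with a Csf1 UMI, 393 held only 1, while 13 held 5 or more, up to 14 in 1 cell.

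Free RNA was gauged from the smallest barcodes, without a test of whether they hold small or damaged cells. The 1000 barcodes with the fewest UMIs of each table held Csf1 at 23.5 to 65.6 CPM, and tumour cells lay below the barcodes of their own library in each library but KO intermediate. The mean levels of endothelial cells and of TAM II (49.3 CPM) lay in that range too. Lymphocytes, which are not a known main source of CSF1, had a thinned share of 2.23% (18 UMIs, median 2947.5 UMIs per cell) and TAM II of 1.86% (median 3273.5), against 2.47% in tumour cells (median 4888). The unthinned shares were 5.88%, 6.92% and 15.6%. The thinned share of tumour cells was thus close to that of lymphocytes, whereas those of oligodendrocytes (10.7%) and TAM I lay above it. How many of the tumour cell UMIs are free RNA was not tested. No Csf1 UMI was found in the 26 dendritic cell-like cells, and neurons held 1 in tumour-bearing and 2 in naïve mice.

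**Figure D1:**
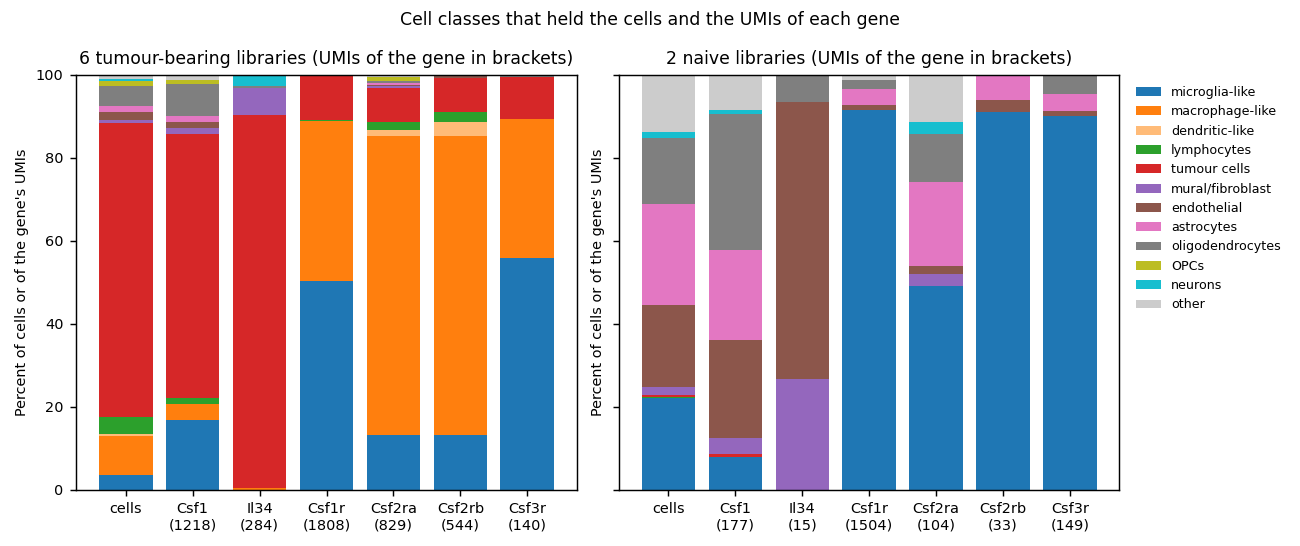
Share of cells and of UMIs by cell class, in percent (vertical axis), for the cells and for each of the genes in turn, with naïve and tumour-bearing libraries pooled separately; colours are cell classes. Tumour cells made up 70.9% of the cells of tumour-bearing mice and held 63.5% of the Csf1 and 89.8% of the Il34 UMIs, while receptor UMIs lay mostly in TAM I and TAM II.

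Il34, the second ligand of CSF1R, had a different distribution. Tumour cells held 255 of the 284 Il34 UMIs of tumour-bearing mice (89.8%), at 11.5, 7.03 and 5.27 CPM in WT early, intermediate and late and 11.8, 13 and 7.30 CPM in KO (mean 9.32 ± 3.16, n = 6). All 6 libraries held between 29 and 62 such UMIs. Unlike Csf1, Il34 was nearly absent from the other abundant cells. There were 0 Il34 UMIs in TAM I, where a count of 0 allows up to 4.47 CPM, 1 in TAM II (0.484 CPM), 0 in lymphocytes (up to 3.94 CPM) and 1 in oligodendrocytes. A UMI was found in 5.66% of tumour cells, or 0.772% at 1000 UMIs per cell, against 0.0423% of TAM II at that depth. The smallest 1000 barcodes of each table held between 0 and 3 Il34 UMIs, or up to 7.42 CPM (WT naïve) and, among tumour-bearing mice, up to 5.75 CPM (KO early, exact Poisson 95% interval 1.19 to 16.8), an interval that spans the levels of tumour cells.

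The highest Il34 levels were in small classes. Mural and fibroblast-like cells held 19 UMIs in 39 cells of tumour-bearing mice (58.4 CPM, exact Poisson 95% interval 35.2 to 91.2) and 4 UMIs in 17 cells of naïve mice. The tumour cell markers summed to 698, 8963, 5031 and 8821 CPM in these cells of WT early, WT late, KO early and KO intermediate. They summed to 2667 to 6242 CPM in tumour cells and to 369 and 145 CPM in naïve mural and fibroblast-like cells. WT early held 8 of the 19 UMIs. The part of tumour cell RNA in these counts was not tested. Neurons, the known source in healthy brain, held 7 UMIs in 25 cells of tumour-bearing mice (54.7 CPM, 22.0 to 113) and none in the 13 naïve neurons, where 0 allows up to 68.1 CPM. That interval reaches below this bound, so a difference was not detectable at this depth. Endothelial cells held 10 UMIs in naïve mice, 9 of them in the KO library, and 0 in tumour-bearing mice (up to 9.43 CPM). In the 3 libraries with at least 5 neurons their level rests on 1 UMI (WT late), 3 UMIs (KO intermediate) and 1 UMI (KO late), too few to rank neurons against tumour cells library by library, while mural and fibroblast-like cells ranged from 0 to 201 CPM (n = 4) and overlapped with tumour cells.

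The ligands of the other receptors were sparse. Csf2, which encodes GM-CSF, had 44 UMIs in 16 cells, all in tumour-bearing mice, of which lymphocytes held 34 (77.3%, exact interval 62.2% to 88.5%) in 11 cells and tumour cells of the KO early library 10. Lymphocytes were 3.90% of the cells. Csf3, which encodes G-CSF, had 3 UMIs, Il5 had 5 and Il3 none. These genes fell below the minimum of 30 cells and entered no test.

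Csf1r, the receptor of both ligands (chr18:61100598-61132149, plus strand, overlapping Hmgxb3 on the other strand), was carried by the myeloid cells. Naïve microglia-like cells stood at 2538 (WT) and 3012 CPM (KO). TAM I stood at 1052, 1096 and 1782 CPM in WT early, intermediate and late and at 1564, 1430 and 1784 CPM in KO, and TAM II at 309, 332, 376, 295, 335 and 399 CPM in the same order. The groups did not overlap, so that every TAM I value lay below both naïve values and above every TAM II value. A Csf1r UMI was found in each of the 201 naïve microglia-like cells, in 98.3% of TAM I and in 66.3% of TAM II, or in 92.5%, 73.7% and 28.6% at 1000 UMIs per cell.

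Outside these cells Csf1r was low. Tumour cells held 190 UMIs, at 2.4 to 17.9 CPM per library, which was 0.205% to 1.00% of the TAM I level of the same library, where the median of the 10 microglia markers in tumour cells was 0.776% to 1.15% of TAM I and the highest marker at 34.7% to 108%. The part of carried-over RNA in these counts was not tested. No Csf1r UMI was found in astrocytes, neurons or dendritic cell-like cells of tumour-bearing mice. In naïve mice, astrocytes held 59 UMIs and oligodendrocytes 32, and the smallest barcodes of those libraries stood at 498 and 523 CPM. Of the Csf1r UMIs of tumour-bearing mice, TAM I held 50.3% (27.05% to 63.2% by library), TAM II 38.5% (16.8% to 53.0%) and tumour cells 10.5% (3.23% to 28.4%). TAM II held more of them than TAM I in the WT intermediate and KO late libraries.

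Csf3r followed the order of Csf1r. It stood at 263 and 283 CPM in naïve microglia-like cells, at 118, 57.7 and 67.7 CPM in TAM I of WT early, intermediate and late, and at 111, 169 and 72.1 CPM in TAM I of KO. The WT intermediate value rests on 1 UMI in 5 cells. TAM II lay at 9.76 to 32.9 CPM (mean 21.4 ± 9.02, n = 6), below every TAM I value. Lymphocytes, endothelial cells and astrocytes of tumour-bearing mice had 0 UMIs, and tumour cells 14. Although the receptor is best known from neutrophils, S100a8, the leading neutrophil marker, was at 21.8 CPM in TAM II.

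The GM-CSF receptor chains had the opposite order between TAM I and TAM II, although Csf2rb did not pass the test given below. Csf2ra stood at 244, 389 and 215 CPM in TAM II of WT early, intermediate and late and at 339, 280 and 308 CPM in KO. In TAM I it stood at 171, 115 and 113 CPM in WT and at 148, 209 and 108 CPM in KO, and in naïve microglia-like cells at 89.2 and 115 CPM. Every TAM II value thus lay above every TAM I value. Csf2rb, the shared beta chain, was at 224, 126 and 296 CPM in TAM II of WT and 166, 194 and 154 CPM in KO, against 89.2, 57.7 and 192 CPM in TAM I of WT and 98.5, 115 and 54.1 CPM in KO. TAM II was the higher in each of the 6 libraries although the ranges overlapped, and the TAM I value of WT intermediate rests on 1 UMI. Naïve microglia-like cells overlapped with TAM I for both chains, with Csf2rb at 52.4 and 74.3 CPM. TAM II held 72.1% of the Csf2ra and 72.2% of the Csf2rb UMIs of tumour-bearing mice. The 26 dendritic cell-like cells also carried both chains, with 12 UMIs of Csf2ra (166 CPM pooled, 85.7 to 290) and 18 of Csf2rb (249 CPM pooled, 147 to 393). In the 2 libraries with at least 5 of these cells, Csf2ra averaged 108 ± 12.3 CPM and Csf2rb 187 ± 123 CPM, both overlapping with TAM I and Csf2rb also with TAM II, which was the lower in KO intermediate (194 against 273 CPM). Csf2rb2 was at 66.6 ± 26.2 CPM in TAM II and 43.5 ± 36.1 in TAM I (n = 6).

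**Figure D2:**
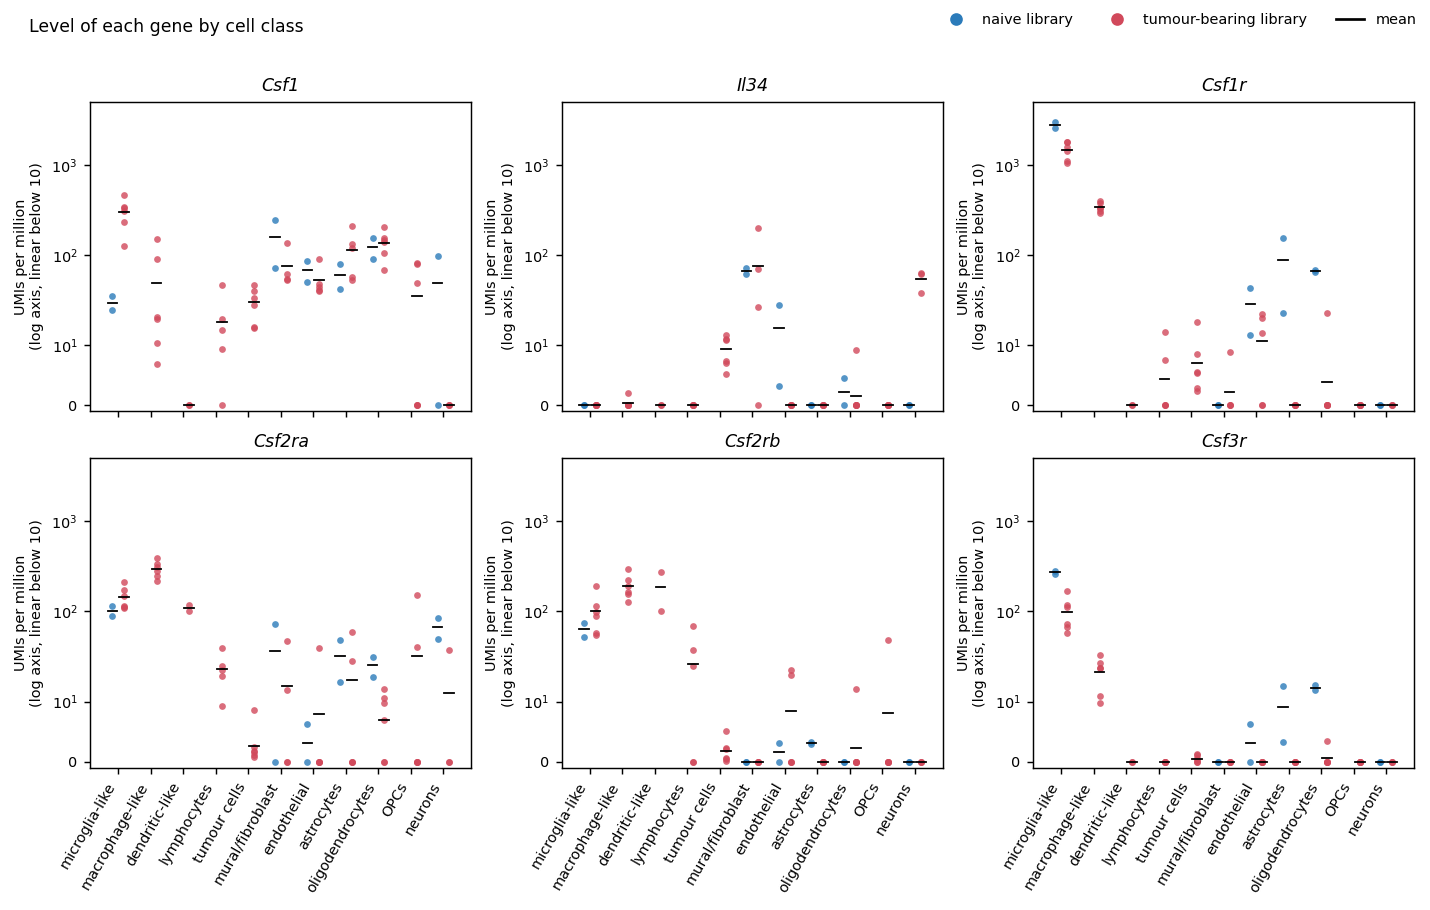
Levels of the 6 genes by cell class in CPM (vertical axis, logarithmic above 10 and linear below, classes along the horizontal axis); each point is 1 library with at least 5 cells of the class, coloured by naïve or tumour-bearing, and black lines are means. Csf1r and Csf3r were highest in naïve microglia-like cells and lower in TAM I and TAM II, Csf2ra and Csf2rb had their highest means in TAM II, followed by TAM I and dendritic cell-like cells in an order that differed between the genes, and Csf1 was highest in TAM I.

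TAM II and TAM I were compared within the 6 libraries with edgeR's quasi-likelihood test on the UMI sums, with Benjamini-Hochberg adjustment over all 5569 genes tested. The comparison asks which of the myeloid populations carries the ligand and which the receptors. Of the 5 genes tested (Il34 was too low), 4 passed an adjusted p of 0.05, while 18.3% of all genes tested did (9.71% higher and 8.6% lower in TAM II). The 4 include Csf1 and Csf3r, whose calls are not read, as given below. Csf1 was lower in TAM II by a log2 fold change of -3.42 (SE 0.44, adjusted p = 8.67e-08). Csf1r was lower by -2.03 (SE 0.24, adjusted p = 3.83e-08) and Csf3r by -2.31 (SE 0.47, adjusted p = 0.000487), each lower in 6 of 6 libraries. Csf1 and Csf3r were too low in TAM II (4 to 13 and 1 to 16 UMIs per library) to enter the fit through it. Their levels are therefore read and not their calls. Csf2ra was higher in TAM II by 0.85 (SE 0.30, adjusted p = 0.0398, 6 of 6 libraries), and this call was lost without the WT intermediate, the KO early or the WT late library (adjusted p = 0.0718, 0.144 and 0.0822). Csf2rb had a log2 fold change of 0.90 (SE 0.39) and did not pass (adjusted p = 0.106). The median over the 5 genes was -2.03 and over all genes tested 0.09. The classes were formed from the same cells, though without these genes, so the test describes the classes as drawn.

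**Figure D3:**
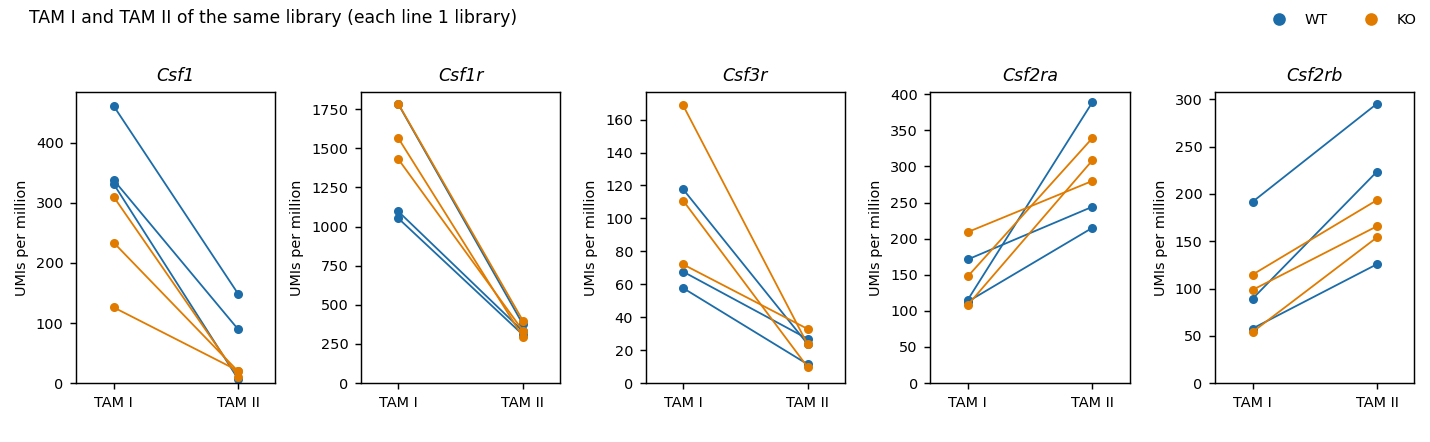
Levels in TAM I and TAM II (CPM, vertical axis) for each gene, with a line for each of the 6 libraries of tumour-bearing mice, coloured by genotype. In all 6 libraries TAM II lay below TAM I for Csf1, Csf1r and Csf3r and above it for Csf2ra and Csf2rb, of which Csf2rb did not pass the test.

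Microglia-like cells of tumour-bearing mice were then compared with those of naïve mice, with genotype as a covariate. Of the 5 genes tested, 3 passed, against 16.1% of the 3227 genes tested (9.05% higher and 7.03% lower in tumour-bearing mice). The 3 include Csf1, whose call is not read, as given below. Csf1 rose by 3.30 on the log2 scale (SE 0.44, edgeR adjusted p = 9.03e-05), Csf1r fell by 0.94 (SE 0.28, adjusted p = 0.0290) and Csf3r fell by 1.24 (SE 0.34, adjusted p = 0.0202), and for each the 6 tumour-bearing and 2 naïve libraries did not overlap. Csf1 entered this test through TAM I, where it is high, as each naïve library held only 7 UMIs. Its rise is therefore read from the levels and not from the call. Csf2ra (0.64, SE 0.37, adjusted p = 0.242) and Csf2rb (0.80, SE 0.42, adjusted p = 0.203) did not pass. With each tumour-bearing library left out in turn, Csf1 kept its direction. Leaving out the WT or the KO naïve library leaves 1 in that group, so the spread then comes from the tumour-bearing libraries. Csf1r and Csf3r lost their calls there. Over all alternatives the log2 fold changes were 3.08 to 3.71 for Csf1, -1.05 to -0.83 for Csf1r and -1.52 to -0.68 for Csf3r. Each gene kept its direction. Csf1r also missed the threshold without the KO early library (adjusted p = 0.0511).

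Naïve and tumour-associated microglia-like cells lay mostly in different clusters. One cluster held 192 of the 201 naïve cells, and 2 others, led besides complement genes by the chemokine genes Ccl3, Ccl4 and Ccl12, held 83 and 82 of the 174 TAM I cells. Csf1 was at 314 and 309 CPM in TAM I of those clusters and at 25.9 CPM in the naïve cells of the first. Csf1r was at 1733 and 1118 CPM in the former and 2885 CPM in the latter. The first cluster also held 9 TAM I cells, with Csf1r at 3137 CPM (62 UMIs) and Csf1 at 50.6 CPM (1 UMI). The cluster with 83 TAM I cells also held 8 naïve cells, with Csf1r at 1417 CPM (29 UMIs) and Csf1 at 97.7 CPM (2 UMIs). Within these 2 clusters Csf1r was thus not lower in tumour-bearing mice. The 1 naïve cell of the remaining cluster had Csf1r at 1998 CPM (8 UMIs). Other values moved with the comparison, and their part in it was not tested. The 10 microglia markers summed to 27151 and 28341 CPM in the naïve libraries and to 10724 to 18090 CPM in TAM I, and the 11 macrophage markers to 986 and 681 CPM against 1181 to 3985 CPM. Oligodendrocyte markers summed to 5097 CPM in TAM I of the WT late library, against 173 to 613 CPM in the other 5. Mitochondrial transcripts made up 4.82% and 3.50% of UMIs in the naïve libraries and 1.74% to 7.74% in TAM I. By their sample numbers, the naïve libraries fall in 1 series with the WT early and KO intermediate libraries. What the series stands for was not given in the sources used here. The tumour-bearing mice of this series were the female ones, so series and sex cannot be told apart among tumour-bearing libraries. Among these 4 libraries alone Csf1 rose by 3.71 on the log2 scale, its call again not being read. Csf1r fell by 0.89 (edgeR adjusted p = 0.00298), Csf2ra rose by 1.17 (adjusted p = 0.0103) and Csf3r gave -0.68 (adjusted p = 0.113).

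**Figure D4:**
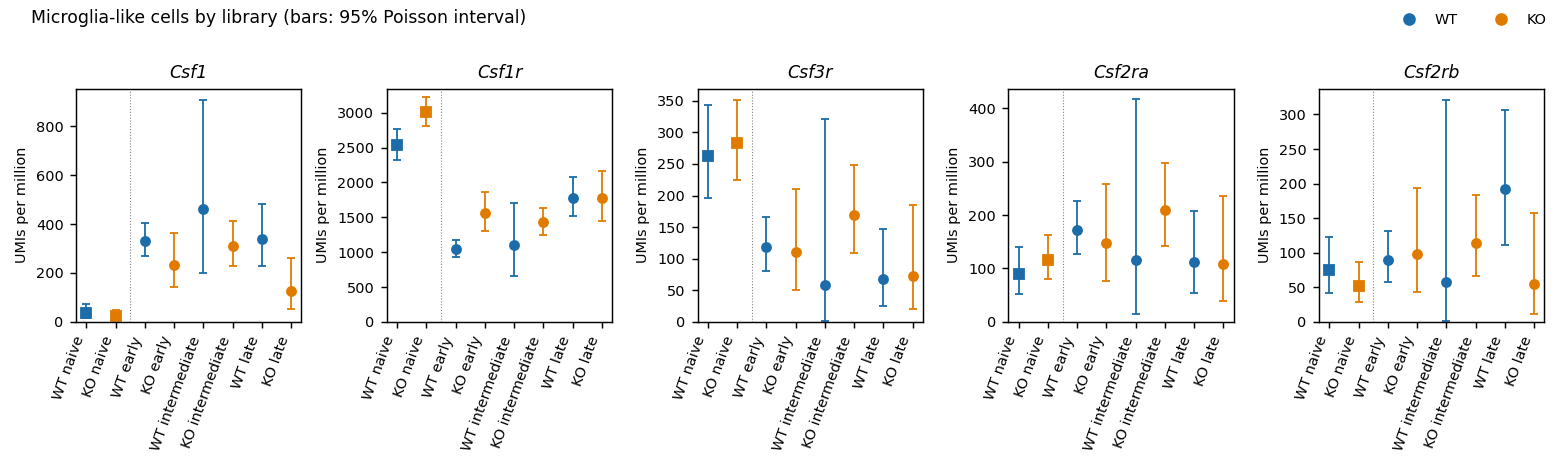
Levels of the genes in microglia-like cells (CPM, vertical axis) by library, with naïve and tumour-bearing libraries side by side; bars are exact Poisson 95% intervals, which cover counting error only. Csf1 lay at 24.5 and 34.7 CPM in the naïve libraries and at 126 to 462 CPM in the tumour-bearing ones, and Csf1r lay at 2538 and 3012 against 1052 to 1784 CPM.

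In oligodendrocytes no such rise was called, and endothelial cells and astrocytes could not be tested. In oligodendrocytes, Csf1 had a log2 fold change of 0.15 (SE 0.33, edgeR adjusted p = 0.95) between tumour-bearing and naïve mice, where 2.25% of 2664 genes were called. The difference between the changes in microglia-like cells and oligodendrocytes, tested as an interaction in 1 fit, was 3.38 for Csf1 (SE 0.54, edgeR adjusted p = 5.68e-06), with 3.6% of 4023 genes called. Csf1r entered that fit through the microglia-like cells, and no difference is read for it: oligodendrocytes held 32 Csf1r UMIs in naïve and 2 in tumour-bearing mice, in naïve mice at 2.23% to 2.54% of the microglia-like level beside a microglia marker median of 1.32% to 3.41%. In endothelial cells and astrocytes, where 5.51% of 1360 and 1.14% of 614 genes were called, none of the 6 genes had enough UMIs to be tested. Their Csf1 levels in naïve mice were 67.3 ± 25.1 and 60.2 ± 26.1 CPM (n = 2). In tumour-bearing mice they were 52.3 ± 21.0 and 113 ± 63.6 CPM (n = 5), and in both classes the ranges overlapped with the naïve ones.

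Tumour cells were set against their neighbours in the same fit over 7 classes. The 4 receptor genes entered this fit through the myeloid classes in which they are high, so they are given as levels only in all comparisons with tumour cells. Csf1 was likewise high in TAM I and oligodendrocytes (means 300.4 and 136 CPM) and lower in tumour cells (29.8 CPM). It passed the filter through such classes, so its calls against them are not read beyond these levels. Tumour cells held means of 7.10 CPM of Csf1r, 2.68 of Csf2ra, 1.75 of Csf2rb and 0.506 of Csf3r (n = 6), beside the TAM I and TAM II levels above. Against TAM I, where 59% of genes were called (26.3% lower), Csf1 was lower in tumour cells by a log2 fold change of -3.58 (SE 0.35, edgeR adjusted p = 7.10e-12). Against TAM II, where 63.2% of genes were called (28.3% lower), Csf1 gave -0.16 (SE 0.43, adjusted p = 0.766), or 0.20 with scaling by library totals alone. Against oligodendrocytes, where 60.5% were called, Csf1 was lower by -2.45 (SE 0.39, adjusted p = 6.15e-07), lower in 6 of 6 libraries. Against astrocytes, where 47.1% were called, Csf1 was lower by -1.90 (SE 0.69, adjusted p = 0.022), and this call was lost without the KO early, WT late or KO late library (adjusted p = 0.0681, 0.0948 and 0.0656). The call was also lost without the filter on low sums and in a fit of the 2 classes. It held under 12 of 18 alternatives (log2 -2.42 to -1.05 over all 18). Against endothelial cells, where 49.3% were called, Csf1 gave -0.84 (adjusted p = 0.321) and did not pass. Il34 did not pass the filter on low sums in any comparison between classes.

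Genes downstream of the receptors were taken from lists of known pathway genes. Of 9 adaptors and signalling proteins of CSF1R, 7 were tested between TAM II and TAM I, and 2 were lower in TAM II, beside 8.6% of all genes tested. These were Inpp5d, the lipid phosphatase SHIP1 that dampens receptor signalling (58.7 ± 25.5 against 208 ± 81.4 CPM, n = 6, log2 fold change -1.81, edgeR adjusted p = 3.11e-05), and Pik3r1, the regulatory subunit of PI3-kinase (111 ± 42.3 against 275 ± 130.01 CPM, -1.33, adjusted p = 9.46e-05). Tyrobp, an adaptor used by myeloid receptors, had 1806 ± 300.2 against 2238 ± 300.1 CPM and did not pass (adjusted p = 0.671). The median of the list was -0.32, against 0.09 over all genes tested.

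Of 9 JAK-STAT, kinase and feedback genes downstream of the GM-CSF and G-CSF receptors, 6 were tested and 2 were higher in TAM II, beside 9.71% of all genes tested. Both are targets of STAT5: the kinase gene Pim1 (467 ± 86.3 against 192 ± 48.6 CPM, n = 6, log2 fold change 1.28, edgeR adjusted p = 0.000200) and the feedback inhibitor gene Cish (69.4 ± 26.8 against 11.1 ± 10.9 CPM, 2.14, adjusted p = 0.00425), each higher in 6 of 6 libraries. Cish was too low in TAM I to enter the fit through that class, so its levels are read and not its call. Of the 2, only the call of Pim1 is therefore read. Lyn, a SRC-family kinase gene (-0.75, adjusted p = 0.0534), and Jak2 (0.76, adjusted p = 0.264) did not pass. None of 6 transcription factor genes of the myeloid lineage passed with edgeR between TAM II and TAM I, the closest being Cebpb at 1450 ± 147 and 1075 ± 672 CPM (adjusted p = 0.0967). Of 7 other ligand and receptor genes, none had enough UMIs to be tested.

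Between tumour-bearing and naïve microglia-like cells, 16.1% of all genes tested were called. Of the 7 adaptors tested, 1 passed, a share near that of all genes. It was the kinase gene Fes, which was lower (47.6 ± 28.9, n = 6, against 135 ± 1.72 CPM, n = 2; log2 fold change -1.36, edgeR adjusted p = 0.0306). Of 4 tested JAK-STAT genes, Pim1 was higher (192 ± 48.6 against 16.9 ± 4.14 CPM, 3.57, adjusted p = 0.000105). Pim1 was too low in naïve cells to enter this test through them, so its levels are read and not its call. Among 6 transcription factor genes, Cebpb rose (1075 ± 672 against 211 ± 45.7 CPM, 2.24, adjusted p = 0.00287) and Cebpa fell (108 ± 26.8 against 312 ± 70.6 CPM, -1.54, adjusted p = 0.00231). Both encode C/EBP factors of myeloid cells.

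Of 2 other reported receptors of IL-34, Ptprz1, a receptor phosphatase of glial cells, was tested. It stood at 2740 CPM in oligodendrocyte precursor cells, of whose cluster it was a leading gene, 1821 in astrocytes, 228 in tumour cells, 22.5 in oligodendrocytes, 17.8 in TAM II and 9.05 in TAM I (means over libraries). It was lower in tumour cells than in astrocytes (log2 fold change -3.08, edgeR adjusted p = 2.08e-13). TAM I held only 6 UMIs. Sdc1, the other, stood at 100.5 ± 59.0 CPM in mural and fibroblast-like cells (n = 4), 16.05 in tumour cells and 0 in TAM I.

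Between genotypes, edgeR could test 4 of the 6 genes in tumour cells, 3 in TAM I and 5 in TAM II, and called none. DESeq2 called none of them either, but in TAM II it gave no adjusted p for Csf1 and Csf3r. In tumour cells, 0 of 14343 genes (0%) passed with edgeR and 68 with DESeq2, while 935 had an unadjusted p below 0.05 with edgeR. Il34 was at 10.7 ± 2.99 CPM in KO and 7.94 ± 3.22 in WT (n = 3, log2 fold change 0.52, SE 0.29, edgeR adjusted p = 0.909), higher in 3 of 3 stages, and Csf1 gave 0.61 (SE 0.39, adjusted p = 0.95). In TAM I, 0 of 1922 genes passed with edgeR and 1 with DESeq2, while 71 had an unadjusted p below 0.05. Csf1 was at 224 ± 92.6 CPM in KO and 377 ± 73.2 in WT, lower in 3 of 3 stages and without overlap, at a log2 fold change of -0.80 (SE 0.40, edgeR adjusted p = 1.00). In TAM II, 0.0939% of 6390 genes were called, and Csf1 gave -1.62 (SE 0.73, edgeR adjusted p = 0.999), the only one of the genes with an unadjusted p below 0.05. The WT intermediate and WT late libraries held the high values, and without the WT early library it was past the threshold (-2.73, adjusted p = 0.0041).

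Stages were compared as late against early, with 2 libraries each, and none of the 6 genes passed with edgeR where they could be tested. DESeq2 called none of them either, but in tumour cells it gave an adjusted p for Csf1 alone. In tumour cells, 0 of 14343 genes passed with edgeR and 25 with DESeq2, while 1064 had an unadjusted p below 0.05. Il34 was at 6.29 ± 1.44 CPM late and 11.7 ± 0.198 early (log2 fold change -0.96, SE 0.37, edgeR adjusted p = 0.637), and Csf1r at 13.2 ± 6.64 and 5.46 ± 0.0474 (1.15, SE 0.42, adjusted p = 0.627). Neither passed, although the late and early libraries did not overlap for either gene. In TAM I, 0 genes passed with edgeR and 5 with DESeq2 (83 below an unadjusted p of 0.05), and in TAM II 0 and 1 (339 below it). Csf1 in TAM II was at 55.1 ± 48.8 CPM late and 13.2 ± 9.01 early (1.69, SE 0.91, adjusted p = 0.961).

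**Figure D5:**
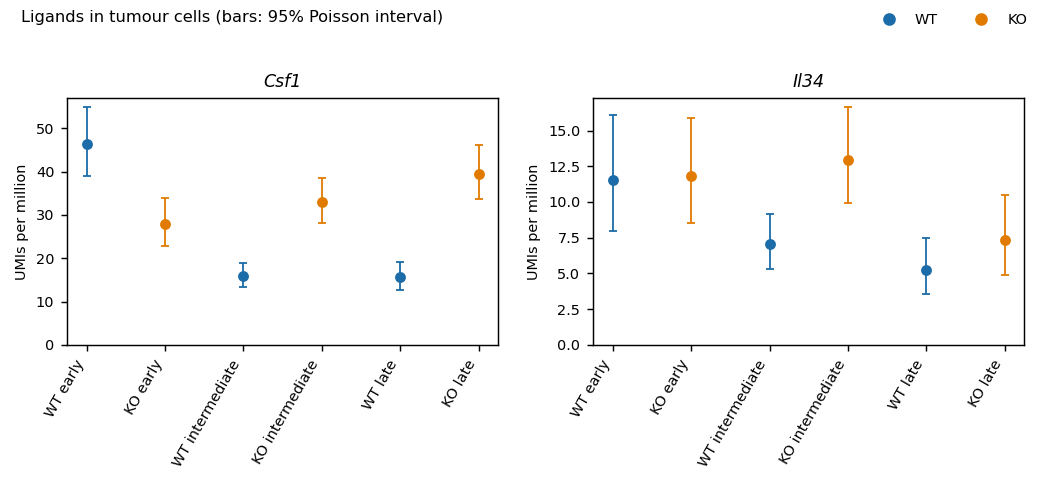
Levels of Csf1 and Il34 in tumour cells (CPM, vertical axes, each with its own scale) by stage and genotype, with exact Poisson 95% intervals that cover counting error only. Il34 was higher in KO than in WT at each of the 3 stages and Csf1 at 2 of the 3, and neither difference passed the test.

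Genes with the most similar pattern were sought by Pearson's r of log2(CPM + 10) over 39 sums of at least 20 cells, which share libraries and cell classes, so that r is a description. Csf1r was most like Trem2 (r = 0.968), Cd33 (0.967) and Cx3cr1 (0.963), receptor genes of microglia. Csf3r was most like Cd33 (0.961), Hpgds (0.959) and Slc7a8 (0.957). Csf2ra was closest to Aif1 (0.920), which encodes the myeloid protein IBA1, Tbxas1 (0.917) and Basp1 (0.915), and Csf2rb to Alox5ap (0.964), Bcl2a1a (0.952) and Osm (0.9495). The ligands had looser companions, for Csf1 Pmp22 (0.765), a myelin gene, Atp8a1 (0.703) and Kcnk13 (0.682), and for Il34 Tinagl1 (0.750), Rhoj (0.723) and Tns2 (0.711).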

How the data were processed

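Single-cell UMI counts (whole numbers per gene and barcode, not normalized) were used as deposited by the authors, 1 table per library with 3000 barcodes each. The submitters' processing notes name bcl2fastq 2.0, STAR and the genome build GRCm38 (mm10), and the methods name the Drop-seq pipeline. The annotation and the strand setting were not given in the sources used here. The depth per library was 2885345 to 9950713 UMIs, and intervals (exact, 95%) and the 3-UMI limits for counts of 0 cover counting error only.

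Genes in at least 30 cells and, among the 1000 largest barcodes of each library, cells with at least 1000 genes were kept. Clusters (50 principal components without the listed genes, tSNE at perplexity 50 with Rtsne 0.17, HDBSCAN with at least 19 cells, the 64 unassigned cells joined by their 15 nearest cells, myeloid cells divided by Leiden clustering with leidenalg 0.10.2) were named from marker lists. Doublets marked by Scrublet (1 to 41 cells per library) were kept, and leaving them out was an alternative. In the 3 libraries where it marked under 0.5% of cells, the 5% of cells with the highest scores (36 to 50) were left out instead. UMIs were summed per library and class (at least 5 cells) and tested with edgeR 4.0.16 (quasi-likelihood, TMM, filterByExpr, R 4.3.3), adjusted over all genes tested at 0.05. The library was a block between classes, genotype a covariate against naïve, and stage and genotype additive terms within a class. DESeq2 1.42.0, other scalings, filters, clusterings and each library left out were alternatives. Each tumour-bearing library is 1 mouse, so p-values measure the spread between these libraries. The tests were first tried on simulated data. The genes named were the listed ones, up to 4 pathway genes per list and comparison with the lowest adjusted p, and for each listed gene the 3 genes of highest r. Genes, lists, motifs and tests were chosen with earlier results of these data known.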

Additional observations from a re-analysis of the deposited data

Results flagged for a closer look

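Of 24 groups of 4 to 6 libraries tested by Dixon's criterion, 3 held a library that stood apart, where chance gives about 1 in 20. Csf1 in endothelial cells of the KO intermediate library was at 89.511 CPM from 4 UMIs, with the next library at 47.4 CPM. Csf1 in mural and fibroblast-like cells of the KO early library was at 134.15 CPM, also from 4 UMIs, with the next at 61.9 CPM. Csf2ra in tumour cells of the KO late library was at 8.5634 CPM from 34 UMIs, with the next at 2.47 CPM. In that library Csf2ra and Csf2rb in tumour cells were at 2.78% and 3.27% of their TAM II levels, and the macrophage markers at a median of 2.75%.

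The change between naïve and tumour-bearing mice differed between microglia-like cells and oligodendrocytes in a test of the difference (edgeR, 6 tumour-bearing and 2 naïve libraries), by 3.3775 on the log2 scale for Csf1 (adjusted p = 5.68e-06). The same test gave 3.332 for Csf1r (adjusted p = 0.00877). For Csf1r no difference is read: the gene was tested through its level in microglia-like cells, and the oligodendrocyte side rests on 32 UMIs in naïve and 2 in tumour-bearing mice, in naïve mice at 2.23% to 2.54% of the microglia-like level beside a microglia marker median of 1.32% to 3.41%.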

How the results depend on the processing

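Csf1 kept its direction in TAM II against TAM I under 18 of 18 alternatives (log2 -3.87 to -2.85). It also did so in tumour-bearing against naïve microglia-like cells under 21 of 21 (3.08 to 3.71). Its calls in these comparisons are not read. Of 1036 fold changes recomputed, 962 kept direction and side of the threshold, 25 lost and 10 gained a call in the same direction, and 39 changed sign, of which 36 were called in neither fit. The 3 called in 1 of the fits were Csf3r in tumour cells against astrocytes (-4.0402 with DESeq2, 2.36 with edgeR) and against endothelial cells (-3.1121 with DESeq2, 2.39 with edgeR), and Csf1r against oligodendrocytes (-1.6284 with Leiden clustering, 0.86 with the reported clusters). The cause was not tested. These rest on classes with 0 to 2 UMIs.

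The sign changes of uncalled values were these, on the log2 scale. In tumour cells against TAM II, Csf1 (-0.16) gave 0.20 with totals alone and -0.61 to 0.44 on leaving out each library. Against astrocytes, DESeq2 gave -0.30 for Csf1r (5.58) and -2.48 for Csf2rb (3.72). Against oligodendrocytes, Csf2rb (-0.10) gave 0.20 without the filter, 0.16 at 500 genes, 0.0024 with another tSNE seed, 0.21 with totals alone and -0.41 to 3.05 on leaving out each library, and Csf3r (-1.37) gave 2.02 without doublets. For KO against WT in TAM I, Csf2ra (0.03) gave -0.25 at 10 cells per sum, -0.054 with all genes clustered and -0.098 without doublets. In TAM II, Csf1r (0.04) gave -0.089 with all genes clustered, -0.14 with another seed and -0.048 with Leiden clustering. For late against early in TAM II, Csf2rb (0.02) gave -0.037 without the filter, -0.0037 at 500 genes, -0.040 with all genes clustered and -0.26 with another seed. Leaving out each library gave -2.30 to 4.30 for Csf2ra in tumour cells against endothelial cells, -0.16 to 0.45 for Csf1 in oligodendrocytes against naïve, and for KO against WT -0.27 to 0.49 for Csf2ra in TAM I and -0.64 to 0.026 for Csf2rb and -0.50 to 0.65 for Csf3r in TAM II. For late against early it gave -1.53 to 0.35 for Csf1 and -0.19 to 1.72 for Csf2ra in tumour cells, and -0.39 to 3.796 for Csf1, -0.46 to 0.40 for Csf2rb and -0.23 to 1.69 for Csf3r in TAM II.

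The number of the listed genes called changed as follows. Counts for TAM II against TAM I include Csf1 and Csf3r, and counts for microglia-like cells against naïve include Csf1. These calls are not read. The counts for tumour cells against other classes include receptor genes that were tested only through their level in myeloid cells. Nothing is read from these counts, except that a count of 0 against astrocytes includes the loss of the Csf1 call. Against astrocytes it was 2, but 0 without the filter, 1 without unassigned cells and 0 in a fit of the 2 classes. Against endothelial cells it was 0, but 2 with DESeq2, 1 without the filter and 1 in a fit of the 2 classes. Against oligodendrocytes it was 1, but 3 with DESeq2 and 2 without the filter, at 500 genes per cell, with Leiden clustering or in a fit of the 2 classes. Against naïve mice, 1 was called without the filter in oligodendrocytes and 1 in astrocytes, where it had been 0. Leaving out each library in turn gave 2 (without KO early) to 4 in TAM II against TAM I, 0 (without KO early) to 2 against astrocytes, 1 to 2 (without KO late) against oligodendrocytes, 1 (without either naïve library) to 3 in microglia-like cells against naïve, and 0 to 1 (without WT early) for KO against WT in TAM II. Csf2ra in TAM II against TAM I also lost its call with RLE factors (adjusted p = 0.0764), DESeq2 (0.138), at least 10 cells per sum (0.0713) and another tSNE seed (0.0532), and Csf2rb gained one without the filter (0.0130), at 500 genes (0.0434) and in the fit of the 2 classes (0.0038). In microglia-like cells, Csf1r lost its call without the filter (0.111) and without doublets (0.0502).

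Scaling by library totals alone and the fit within 1 series of sample numbers were chosen after seeing the data. Totals alone moved the median of all genes in tumour cells against TAM I from 0.24 to 0.58 (log2). Thinning, which can only lower a share of cells, took 23 of 30 shares out of their intervals. The labels carry no replicate numbers, so libraries were matched only by the design itself, as a block between classes and by stage between genotypes.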
